A study of Mus musculus with 4 samples.

Results

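The Hox genes, the homeobox transcription factors that mark position along the head-to-tail axis, were followed in single-cell RNA sequencing of cells sorted from the mouse aorta-gonad-mesonephros (AGM) region. Members were all gene rows whose symbol was Hoxa, Hoxb, Hoxc or Hoxd followed by a number from 1 to 13. This gave 40 of 31053 rows, for 39 symbols, because Hoxd4 stood under 2 identifiers. All 40 had at least 1 unique molecular identifier (UMI, a counted RNA molecule) in the cells kept. Of these rows, 11 were HoxA genes on chromosome 6, 10 were HoxB genes on chromosome 11, 9 were HoxC genes on chromosome 15 and 10 were HoxD genes on chromosome 2.

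The series held 2 libraries with the label mir-223 -/- (called KO here) and 2 libraries with the label wild type (WT). Per the labels, embryos of both genotypes were matched for age at embryonic day 10.5, and CD31+ CD45- endothelial cells were sorted from the AGM and put through the 10x Chromium 3′ kit, version 3. The labels give no strain, and they do not say whether the libraries came from separate litters or pooled embryos, so each p-value reflects how far these 4 libraries varied, and that variation may be technical. All 4 libraries share the tissue, the age and the sorting gate. The level of miR-223 itself was not analysed here, so the genotype labels were not checked against it.

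Hox genes lie in 4 clusters, and genes at the same place in different clusters form a paralog group with similar proteins. Low-numbered paralogs are expressed earlier and reach further towards the head, and high-numbered paralogs are expressed later and nearer the tail, so the set of Hox genes a cell transcribes records where along the axis it arose. Hox proteins bind DNA together with cofactors of the Pbx and Meis families, and the paralogs with the highest numbers also pattern the limbs. In the AGM, which lies in the trunk, the dorsal aorta gives rise to the first hematopoietic stem cells, and Hoxa9 is known for its part in the self-renewal of hematopoietic stem and progenitor cells.

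The microRNA removed in the KO, miR-223, is encoded on the X chromosome, outside the Hox clusters, and is best known from myeloid cells. The Hox clusters also hold microRNAs of their own, of the miR-10 and miR-196 families, which are known to repress Hox genes. The mature sequences from RefSeq (build GRCm38.p6) are shown because a shared seed, bases 2 to 8 in capitals, groups the 5 sequences into 3 families, and the Hox-encoded families have seeds unlike that of miR-223.
miR-223-3p, chrX:96242884-96242905, plus strand: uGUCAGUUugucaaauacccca
miR-10a-5p, chr11:96317186-96317208, plus strand: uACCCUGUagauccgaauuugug
miR-10b-5p, chr2:74726074-74726096, plus strand: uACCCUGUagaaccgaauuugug
miR-196a-5p, chr11:96265187-96265208, plus strand: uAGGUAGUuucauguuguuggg
miR-196b-5p, chr6:52230129-52230150, minus strand: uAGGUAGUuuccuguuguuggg
The same mature miR-196a-5p is also encoded at chr15:102973365-102973386 on the plus strand, in the HoxC cluster. Sites that pair with these seeds are given with the KO and WT values.

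After removal of low-quality barcodes and likely doublets, 4124 and 5866 cells were kept in the KO libraries and 2297 and 6877 in the WT libraries, with median depths of 20109 and 18641 UMIs per cell in KO and 30224 and 18095 in WT. Pairs of libraries shared 8 to 28 barcodes, at most 0.327% of the smaller library. Cells were clustered without any gene of the Hox regions and named from marker genes, so that a class was not defined by its Hox genes. Summed over 12 endothelial markers, endothelial-like cells held 5732 to 6506 CPM (CPM, UMIs of a gene scaled to a total of 1e+06 UMIs in the class and library), against 222 to 349 CPM in mesenchymal-like, 190.1 to 395 CPM in neural-like and 286 to 347 CPM in germ cell-like cells. By the naming rules used here, 70.2% and 83.5% of the kept cells in the KO libraries and 72.9% and 85.1% in the WT libraries were endothelial-like. Hemogenic-like cells, in whose cluster endothelial markers were detected in 86.1% of cells on average, were counted apart. A further 134 and 321 cells in the KO libraries and 79 and 418 in the WT libraries, in clusters where endothelial markers were detected in 63.3% and 78.9% of cells on average, stayed unnamed. Because the kit reads transcript ends, levels were not divided by gene length, and an order of genes by CPM is an order of counted molecules.

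**Figure D1:**
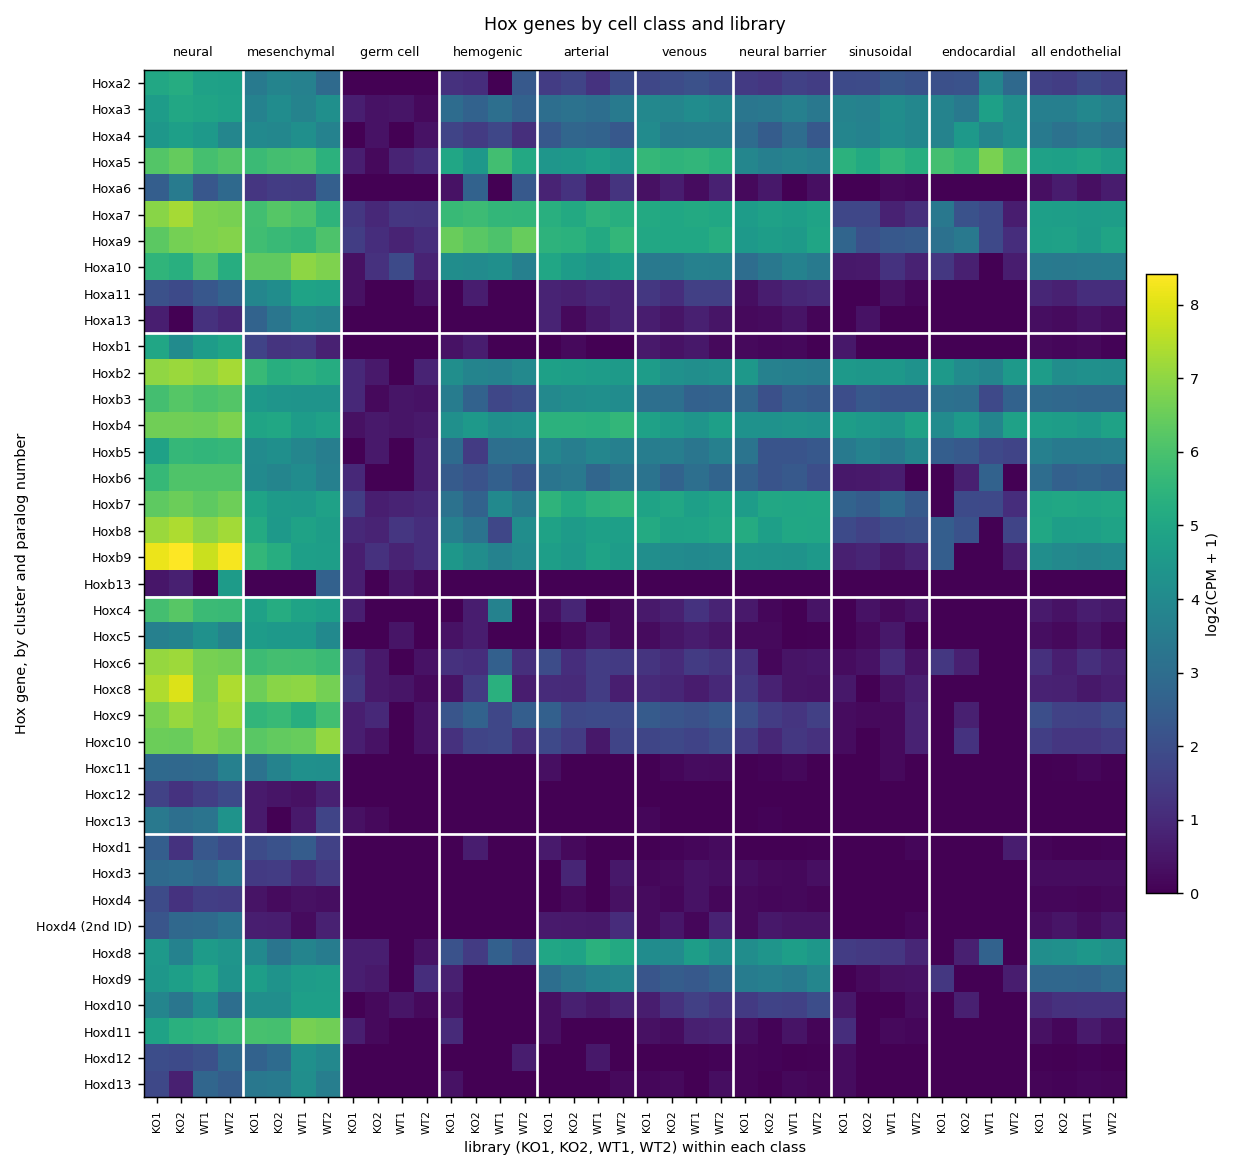
Level of 39 Hox rows, as log2(CPM + 1), in every library (KO replicates left of WT replicates within a class) of neural-, mesenchymal-, germ cell- and hemogenic-like cells, vessel classes and all endothelial-like cells. Neural- and mesenchymal-like columns are filled across all 4 clusters, germ cell columns are nearly blank, and endothelial columns show the HoxA and HoxB genes with almost no HoxC.

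In endothelial-like cells, the class the sort was meant to collect, Hox transcripts belonged mostly to the middle paralogs of HoxA and HoxB. Hox genes together held 309 and 281 CPM in the KO libraries and 287 and 294 CPM in the WT libraries. Paralogs 4 to 8 supplied 61.5 to 62.9% of these molecules, paralogs 9 to 13 21.1 to 23.7% and paralogs 1 to 3 14.3 to 16.8% over the 4 libraries. Paralog group 7 was the fullest of the groups with 18.1 to 20.2%, next to group 8 with 15.6 to 16.4% and group 9 with 15.7 to 18.4%, and each of groups 11, 12 and 13 held less than 1%. The range of group 7 lay above that of group 8, and the range of group 9 overlapped both.

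The genes with the most molecules in this class were Hoxb7, Hoxb8, Hoxa5, Hoxa9, Hoxb4 and Hoxa7, trunk-level genes that pattern the neck and thoracic region of the vertebral column. Hoxb7 stood at 29.9 and 31.6 CPM in the KO libraries and 29.9 and 31.7 CPM in the WT libraries. Hoxb8 stood at 31.3 and 25.3 CPM in the KO libraries and 26 and 28.2 CPM in the WT libraries. Hoxa9 stood at 26.5 and 27.1 CPM in the KO libraries and 23.9 and 29 CPM in the WT libraries. Hoxb7 overlapped in its range with Hoxb8 alone, and the ranges of Hoxb8, Hoxa9, Hoxa5 (24.7 to 28.9 CPM), Hoxb4 (22.5 to 28.2 CPM) and Hoxa7 (24 to 25.9 CPM) overlapped each other, so these 5 have no order among themselves. Next came Hoxb2, a hindbrain-level gene, at 16.5 to 23.9 CPM, which reached into the range of Hoxb4. Hoxd8, at 16.8 to 20.7 CPM, lay within the range of Hoxb2, and Hoxb9, at 13.7 to 17 CPM, overlapped both at their low ends. Hoxa10, at 9.71 to 10.6 CPM, lay below all of these. Hoxb13 and Hoxc12, genes of the tail end, had no UMI in any endothelial-like cell of the 4 libraries.

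The 4 clusters were used unequally by the endothelium. HoxB genes summed to 154 and 134 CPM in the KO libraries and 132 and 142 CPM in the WT libraries, and HoxA genes to 122 and 116 CPM in the KO libraries and 121 and 118 CPM in the WT libraries. The HoxD cluster reached 24.9 to 28.9 CPM, most of it Hoxd8. HoxC genes together came to 7.77 and 5.56 CPM in the KO libraries and 6.3 and 6.72 CPM in the WT libraries, which was 1.97 to 2.52% of the Hox molecules of the class. In cells thinned to 5000 UMIs each, 2.64 to 3.16% of endothelial-like cells held a HoxC molecule, against 70.4 to 73.8% for any Hox gene. Without thinning, 95.3 to 98.7% of endothelial-like cells held at least 1 Hox molecule. Mesenchymal markers (18 genes) summed to 111 to 153 CPM in endothelial-like cells, against 1816 to 2442 CPM in mesenchymal-like cells. The part of free RNA, released by other cells, in the low endothelial HoxC values was not tested. The median endothelial-like cell had 20519 and 19192 UMIs in the KO libraries and 31264 and 18627 in the WT libraries, and 15, 44, 9 and 45 cells of KO replicates 1 and 2 and WT replicates 1 and 2 were too shallow to thin.

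**Figure D2:**
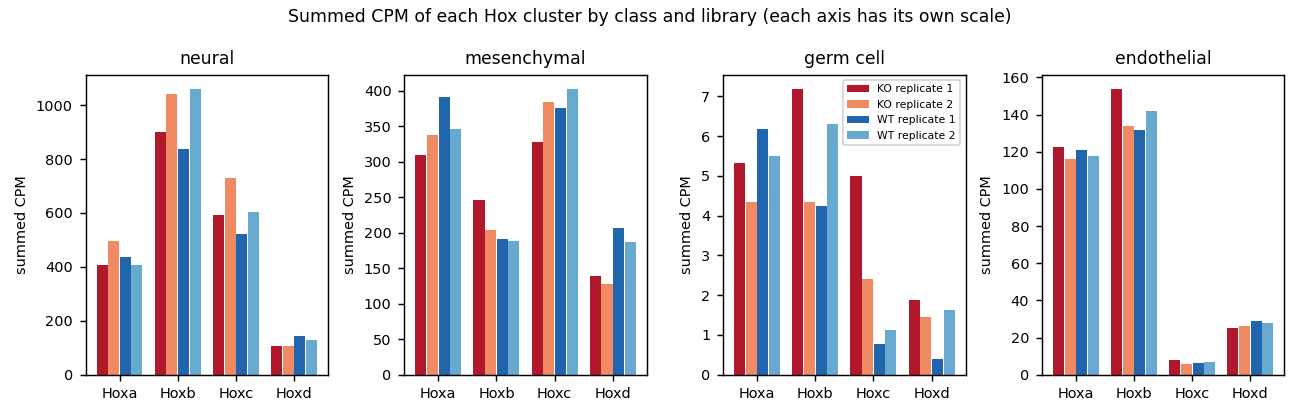
Summed CPM of the HoxA, HoxB, HoxC and HoxD genes in neural-, mesenchymal-, germ cell- and endothelial-like cells, with a bar per library (KO bars left of WT bars) and a separate scale for each class. HoxC bars are as tall as HoxA bars in mesenchymal-like cells and near the floor in endothelial-like cells.

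Mesenchymal-like cells, the connective-tissue precursors that came through the sort (531 and 252 cells in the KO libraries, 350 and 231 in the WT libraries), differed from the endothelium by their HoxC genes and by the paralogs with the highest numbers. Hox genes together held 1023 and 1052 CPM in the KO libraries and 1167 and 1125 CPM in the WT libraries. HoxC genes summed to 329 and 384 CPM in the KO libraries and 376 and 403 CPM in the WT libraries, against 5.56 to 7.77 CPM in the endothelium. Paralogs 9 to 13 summed to 452 and 454 CPM in the KO libraries and 572 and 629 CPM in the WT libraries, against 60.7 to 69.6 CPM in endothelial-like cells. Of 38 Hox genes tested with edgeR on summed counts, with the library as a block, 29 were higher and 4 lower at an adjusted p under 0.05, where 34.9% and 38% of all 15082 genes were. The Hox median log2 fold change was 2.15, against -0.02 over all genes.

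By position, 14 of 14 tested paralogs 9 to 13 rose (median log2 fold change 4.64), while paralogs 4 to 8 had 9 higher and 3 lower of 16 (median 0.88) and paralogs 1 to 3 had 6 higher and 1 lower of 8 (median 1.75). By cluster, 8 of 8 HoxC genes rose (median 5.78), 7 of 10 HoxD, 9 of 11 HoxA and 5 of 9 HoxB. Hoxd12, a gene of the limb bud and the tail end, had 5.22 and 6.78 CPM in the KO libraries and 17.8 and 14.4 CPM in the WT libraries in mesenchymal-like cells and 0.00973 to 0.0515 CPM in endothelial-like cells (log2 fold change 8.27 ± 0.33 (SE), adjusted p = 1.35e-12). Hoxd11, which with Hoxa11 shapes the forearm and the kidney, had 62.2 and 59.8 CPM in the KO libraries and 103 and 94.7 CPM in the WT libraries, against 0.107 to 0.515 CPM (log2 fold change 7.99 ± 0.15 (SE), adjusted p = 4.39e-12). For both genes every mesenchymal-like value lay above every endothelial-like value.

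Hoxc8, a thoracic gene, had 94 and 120.5 CPM in the KO libraries and 125 and 99.8 CPM in the WT libraries in mesenchymal-like cells, against 0.446 to 0.729 CPM in endothelial-like cells (log2 fold change 7.16 ± 0.11 (SE), adjusted p = 1.79e-14). Hoxc11 averaged 14.1 CPM in mesenchymal-like and 0.0498 CPM in endothelial-like cells (log2 fold change 7.92 ± 0.26 (SE), adjusted p = 1.14e-13), and Hoxd13, the digit gene, averaged 11.9 CPM and 0.0761 CPM (log2 fold change 7.01 ± 0.24 (SE), adjusted p = 1.75e-13). Of the other genes with the most molecules over all cells, Hoxa10 (3.04 ± 0.10), Hoxa7 (0.998 ± 0.12), Hoxb9 (0.91 ± 0.12), Hoxb2 (0.89 ± 0.06), Hoxa9 (0.79 ± 0.06) and Hoxa5 (0.75 ± 0.07) rose and Hoxb4 (-0.10 ± 0.07, adjusted p = 0.211) did not pass, all as log2 fold changes.

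A few Hox genes were lower in mesenchymal-like cells. Hoxd8 had 15.1 and 8.77 CPM in the KO libraries and 13 and 10.7 CPM in the WT libraries in mesenchymal-like cells, against 16.8 to 20.7 CPM in endothelial-like cells (log2 fold change -0.83 ± 0.12 (SE), adjusted p = 7.42e-05). Hoxb7 averaged 25.3 against 30.8 CPM (log2 fold change -0.52 ± 0.07 (SE), adjusted p = 7.63e-06). For Hoxb8 the fold was small (log2 fold change -0.25 ± 0.07 (SE), adjusted p = 0.00744) at averages of 27.4 against 27.7 CPM, because fitted folds use library scaling factors and CPM does not. That call was lost without KO replicate 2 (adjusted p = 0.059), without WT replicate 2 (adjusted p = 0.0506) and without the library block (adjusted p = 0.172). Hoxa3, Hoxb4, Hoxb5 and both identifiers of Hoxd4 passed in neither direction.

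Both mesenchymal-like clusters carried Hox genes but with different paralogs. Cluster 8, led by Prrx1 and Pitx1 (372 and 186 cells in KO, 260 and 181 in WT), held 495 to 676 CPM of paralogs 9 to 13, against 266 to 431 CPM in cluster 14, led by Foxd1, Pax1 and Meox1 (159 and 66 cells in KO, 90 and 50 in WT). The mean paralog number per Hox molecule was 7.93 to 8.47 in cluster 8 and 6.52 to 7.15 in cluster 14, without overlap between libraries. This comparison was chosen after the clusters had been seen. Of 34 Hox genes tested, 8 were higher and 20 lower in cluster 8, where 6.1% and 5.84% of all genes were. The 8 higher genes were all paralogs 9 to 13 (of 13 tested, with 2 lower), while 12 of 14 paralogs 4 to 8 and 6 of 7 paralogs 1 to 3 were lower. All 8 tested HoxB genes were lower.

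Hoxa13, a gene of digits and the genital region, had 7.86 and 12 CPM in the KO libraries and 19.5 and 15.5 CPM in the WT libraries in cluster 8 and 0 to 0.664 CPM in cluster 14, on 303 against 2 UMIs (ratio 58.5, counting interval 16.1 to 485, adjusted p = 5.15e-10). Hoxd12 averaged 14.4 against 1.79 CPM (log2 fold change 3.43 ± 0.36 (SE), adjusted p = 7.91e-08), and Hoxd13 averaged 15.4 against 2.81 CPM (log2 fold change 2.70 ± 0.35 (SE), adjusted p = 5.11e-05). Hoxa11 (log2 fold change 2.40 ± 0.21) and Hoxa10 (2.30 ± 0.11) followed. In the other direction, Hoxd1 had 1.05 and 0.801 CPM in the KO libraries and 0.271 and 1.15 CPM in the WT libraries in cluster 8, against 6.09 to 14.6 CPM in cluster 14 (log2 fold change -3.61 ± 0.45 (SE), adjusted p = 1.21e-06), and Hoxb9 (-1.37 ± 0.14), Hoxb8 (-1.31 ± 0.13) and Hoxa2 (-1.30 ± 0.20) were lower. Among the remaining genes with many molecules, Hoxa9 (0.99 ± 0.12) rose, Hoxb7 (-0.94 ± 0.13), Hoxa7 (-0.83 ± 0.09), Hoxa5 (-0.88 ± 0.10), Hoxb4 (-0.68 ± 0.13) and Hoxb2 (-0.71 ± 0.10) fell and Hoxd8 (0.35 ± 0.20, adjusted p = 0.319) did not pass.

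Cluster 8 also carried the genes of limb identity. Pitx1, the hindlimb factor, had 109 and 87.3 CPM in the KO libraries and 119 and 99.5 CPM in the WT libraries in cluster 8 and 0 to 12.9 CPM in cluster 14. Tbx5, the forelimb factor, had 7.77 to 20.03 CPM and Tbx4, the hindlimb factor, 12.8 to 26.5 CPM in cluster 8, so genes of both limb levels were present in each library. Of the 14 limb genes on the list, 12 of 14 tested were higher in cluster 8 than in cluster 14 (median log2 fold change 3.05, against -0.00 over all genes). The limb list was drawn up with earlier results of these libraries known and is no independent evidence. Prrx1 and Pitx1, which led the cluster, are themselves genes of early limb mesenchyme, while the tissue label names the AGM alone.

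Neural-like cells had the fullest Hox code of the classes named. Over 244 and 107 cells in the KO libraries and 61 and 113 in the WT libraries, Hox genes summed to 2007 and 2374 CPM in the KO libraries and 1939 and 2200.1 CPM in the WT libraries. All 40 rows were tested and 37 were higher than in endothelial-like cells, with none lower, where 27.7% and 32.1% of all 14775 genes were (Hox median log2 fold change 3.64, against -0.04 over all genes). The rise ran through all paralogs, with 7 of 8 paralogs 1 to 3, 15 of 16 paralogs 4 to 8 and 15 of 16 paralogs 9 to 13 higher, and through HoxA (9 of 11), HoxB (10 of 10), HoxC (9 of 9) and HoxD (9 of 10). Hoxa13 and Hoxd8 were among those that did not pass.

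HoxB genes led, with 901 and 1043 CPM in the KO libraries and 839 and 1060.5 CPM in the WT libraries, and HoxC genes reached 592 and 730.4 CPM in the KO libraries and 520.5 and 604 CPM in the WT libraries. Hoxc8 had 171 and 254 CPM in the KO libraries and 104 and 165 CPM in the WT libraries in neural-like cells, against 0.446 to 0.729 CPM in endothelial-like cells (log2 fold change 7.87 ± 0.12 (SE), adjusted p = 3.32e-33). Hoxb9, a thoracic spinal cord gene, had 287 and 342 CPM in the KO libraries and 212 and 313 CPM in the WT libraries, against 13.7 to 17 CPM (log2 fold change 3.996 ± 0.09 (SE), adjusted p = 1.22e-19). Hoxb1, known from the hindbrain, averaged 24.9 against 0.12 CPM (log2 fold change 7.47 ± 0.39 (SE), adjusted p = 5.06e-18). Hoxb7 (log2 fold change 1.24 ± 0.09), Hoxb8 (2.15 ± 0.09), Hoxb2 (2.61 ± 0.10), Hoxb4 (1.71 ± 0.09), Hoxa10 (1.95 ± 0.14), Hoxa9 (1.64 ± 0.09), Hoxa7 (2.02 ± 0.09) and Hoxa5 (1.17 ± 0.10) also rose.

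The rarest posterior genes reached their highest levels here, on few molecules. Hoxc13 had 90 UMIs in neural-like and 3 in endothelial-like cells (ratio 1183, counting interval 392 to 5843, adjusted p = 6.65e-15). Its fitted log2 fold change was 9.63, or 8.73 without WT replicate 2. Hoxc12 had 18 UMIs in neural-like and 0 in endothelial-like cells, which makes it at least 237-fold higher when the endothelium is set to a floor of 3 counts over the group, and stood at 1.37 to 2.73 CPM in the 4 libraries. Hoxb13 had 29 against 0 UMIs (at least 381-fold higher), but its level was 0.429 and 0.684 CPM in the KO libraries and 0 and 23.6 CPM in the WT libraries, so WT replicate 2 carried nearly all of it. In mesenchymal-like cells, too, Hoxb13 had UMIs in WT replicate 2 alone (0, 0, 0 and 5.12 CPM in KO replicates 1 and 2 and WT replicates 1 and 2). Cdx2 and Cdx4, tail-bud genes that act upstream of posterior Hox genes, were also highest in the neural-like cells of WT replicate 2, with 1.07, 0, 0.651 and 4.54 CPM for Cdx2 and 3, 0, 0 and 6.36 CPM for Cdx4 in KO replicates 1 and 2 and WT replicates 1 and 2.

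The neural-like class joined 2 clusters that held different amounts of Hox RNA. Cluster 18, with the neuronal genes Tubb3, Nefm and Elavl4 (76 and 37 cells in KO, 18 and 24 in WT), summed to 2646 and 3190.3 CPM in the KO libraries and 3171 and 3922 CPM in the WT libraries. Cluster 13, with the progenitor genes Sox2, Pax6, Hes5 and Fabp7 (168 and 70 cells in KO, 43 and 89 in WT), summed to 1802 and 1706 CPM in the KO libraries and 1534 and 1616 CPM in the WT libraries. The libraries of cluster 18 all lay above those of cluster 13, a difference that was not tested. For paralog group 11 the order was the other way, with 7.07 to 18.4 CPM in cluster 18 and 47.3 to 86.4 CPM in cluster 13.

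Germ cell-like cells, the primordial germ cells that migrate through this region and reset their epigenome as they develop, had almost no Hox RNA. Over 89 and 152 cells in the KO libraries and 45 and 150 in the WT libraries, Hox genes summed to 19.4 and 12.6 CPM in the KO libraries and 11.6 and 14.6 CPM in the WT libraries, against 281 to 309 CPM in endothelial-like cells. Of 29 Hox genes tested, 25 were lower than in the endothelium and none higher, where 43.8% and 36.7% of all 14985 genes were. The Hox median log2 fold change was -4.38, or -3.97 with genes without a UMI set at their bound, against -0.11 over all genes.

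Hoxb4, a gene of the neck level, had 0.313 and 0.483 CPM in the KO libraries and 0.387 and 0.485 CPM in the WT libraries in germ cell-like cells, against 22.5 to 28.2 CPM in endothelial-like cells (log2 fold change -6.000 ± 0.23 (SE), adjusted p = 5.85e-143). Hoxa2 had 0 UMIs against 729, which makes it at least 12.8-fold lower. Hoxd8 (-5.50 ± 0.25) and Hoxa5 (-5.45 ± 0.21, log2 fold changes) also fell. Of the genes with most molecules not named so far, Hoxa9 (-4.62 ± 0.19), Hoxb7 (-5.10 ± 0.19), Hoxa7 (-4.38 ± 0.19), Hoxb8 (-4.85 ± 0.19), Hoxb2 (-5.05 ± 0.24), Hoxb9 (-3.99 ± 0.22) and Hoxa10 (-3.26 ± 0.24) fell. Hoxc5, Hoxc6, Hoxc8 and Hoxd11, which the endothelium also barely expressed, did not pass. After thinning, 8.05 and 5.41% in the KO libraries and 6.82 and 4.9% in the WT libraries of germ cell-like cells held a Hox molecule. In erythroid-like cells, a type taken here as lacking Hox expression, the shares were 6.49 and 0% in the KO libraries and 2.22 and 0% in the WT libraries, at median depths of 25119 to 34219 UMIs against 36474 to 57499 in germ cell-like cells. The erythroid shares of 0 were 0 of 19 cells, which allows a share of up to 15.8%, in KO replicate 2 and 0 of 12 cells, which allows a share of up to 25%, in WT replicate 2. The thinned ranges of both types overlapped, on few erythroid-like cells. Summed levels were 11.6 to 19.4 CPM in germ cell-like and 5.46 to 10.9 CPM in erythroid-like cells, without overlap, and shares without thinning were 27.6 to 49.4% and 15.4 to 25.6%, also without overlap. The part of free RNA in the germ cell values was not tested. With doublets kept the falls were smaller, at log2 fold changes of -4.06 for Hoxb4, -3.77 for Hoxa5 and -4.35 for Hoxd8, and all stayed called.

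Vessel classes within the endothelium carried different Hox codes. Classes were named from markers of arteries, veins, sprouting tips, vessels of the neural barrier, sinusoids or lymphatics, and endocardium, and each was set against the other endothelial-like cells of the same libraries. Summed Hox levels stood at 379.7 to 415 CPM in arterial-like, 325 to 356 CPM in venous-like, 262 to 301 CPM in sprouting, 248 to 268 CPM in neural barrier-like, 167 to 216 CPM in endocardial-like and 152 to 178 CPM in sinusoidal or lymphatic-like cells. The arterial-like range lay above all others, and the endocardial and sinusoidal ranges overlapped below all others. Endocardial-like cells numbered 34 and 79 in the KO libraries and 15 and 103 in the WT libraries, and WT replicate 1 was left out of their fit. Venous-like and sprouting cells were not fitted.

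**Figure D3:**
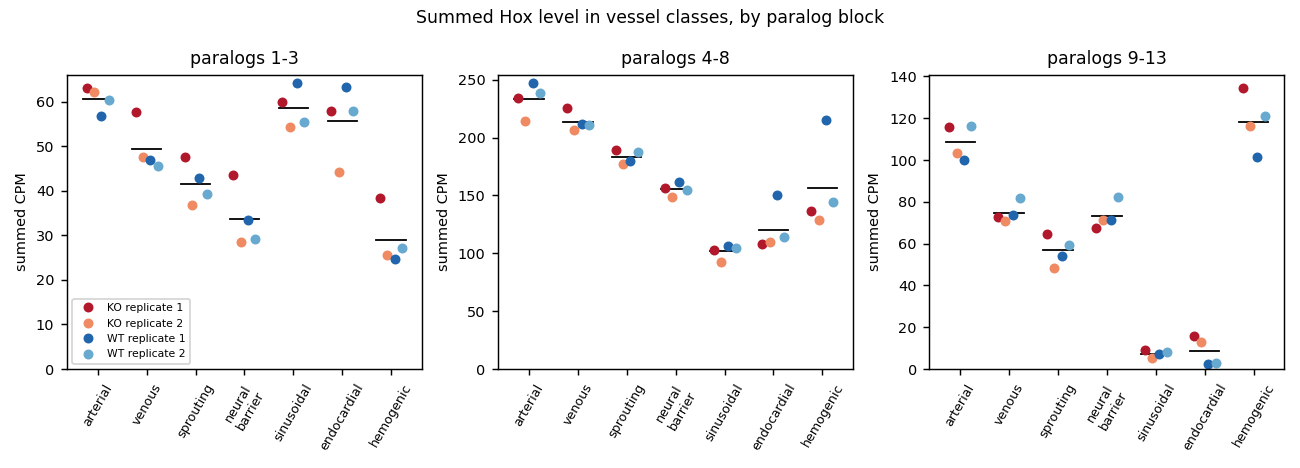
Summed CPM of paralogs 1 to 3, 4 to 8 and 9 to 13 (one panel each) in 7 vessel classes, with a point per library and a line at the mean. Paralogs 9 to 13 sit under 10 CPM in every sinusoidal or lymphatic-like library and above 99 CPM in every arterial-like library. Endocardial- and hemogenic-like points of WT replicate 1 rest on 15 and 11 cells.

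Arterial-like cells, which carry the markers that the dorsal aorta is known for, had more of paralogs 9 and 10 from HoxA and of 6 of 8 HoxB genes. Of 30 Hox genes tested, 14 were higher and 5 lower, where 30.9% and 34.7% of all 13975 genes were (Hox median log2 fold change 0.43, against -0.02). Hoxb3 had 14.6 and 16.6 CPM in the KO libraries and 17.2 and 16.2 CPM in the WT libraries in arterial-like cells and averaged 5.55 CPM in the other endothelial-like cells (log2 fold change 1.35 ± 0.12 (SE), adjusted p = 1.77e-12). Hoxa10 had 30.4 and 24.2 CPM in the KO libraries and 19.96 and 25 CPM in the WT libraries, against an average of 9.25 CPM (log2 fold change 1.26 ± 0.10 (SE), adjusted p = 5.62e-12). Both genes were higher in all 4 libraries. Hoxd8 (0.70 ± 0.08), Hoxa6 (1.22 ± 0.41) and Hoxc6 (0.91 ± 0.31) also rose. The Hoxa6 call was lost without KO replicate 2 (adjusted p = 0.0509) and without WT replicate 2 (adjusted p = 0.0627), and the Hoxc6 call without KO replicate 1 (adjusted p = 0.0624) and without WT replicate 2 (adjusted p = 0.0577). With finer clusters (Leiden resolution 2) both calls were lost too (adjusted p = 0.165 and 0.587 by edgeR).

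The 5 genes that fell in arterial-like cells were Hoxd10 (-1.32 ± 0.40), Hoxa4 (-1.08 ± 0.15), Hoxa3 (-0.73 ± 0.12), Hoxa5 (-0.52 ± 0.08) and Hoxb8 (-0.31 ± 0.08). Neighbouring HoxA genes thus moved in opposite directions, with Hoxa3, Hoxa4 and Hoxa5 lower and Hoxa6, Hoxa7, Hoxa9 and Hoxa10 higher. Hoxa5, known in cultured endothelium as a gene that restrains blood vessel growth, averaged 21.8 against 27.2 CPM. The other genes of the highest molecule counts all rose, with log2 fold changes of 0.48 ± 0.07 for Hoxa9, 0.55 ± 0.09 for Hoxb9, 0.23 ± 0.07 for Hoxb7, 0.42 ± 0.07 for Hoxa7, 0.61 ± 0.07 for Hoxb4 and 0.25 ± 0.09 for Hoxb2. The Hoxb7 call was lost without WT replicate 2 (adjusted p = 0.0997) and at resolution 2 (adjusted p = 0.0895). The Hoxb2 call was lost without KO replicate 2 (adjusted p = 0.203), at resolution 2 (0.393), with no filter on low counts (0.0682), with DESeq2 (0.0562) and with no library block (0.138, all adjusted p-values).

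Sinusoidal or lymphatic-like cells (176 and 262 in KO, 175 and 387 in WT) had an anterior code. Their paralogs 9 to 13 summed to 9.31 and 5.15 CPM in the KO libraries and 7.04 and 8.08 CPM in the WT libraries, and their mean paralog number was 4.03 to 4.14, against 6.39 to 6.54 in arterial-like cells. Of 30 Hox genes tested, 6 were higher and 16 lower, where 27.6% and 25.9% of all 13523 genes were (Hox median log2 fold change -1.98, against -0.01). Of paralogs 1 to 3, 4 of 5 rose and 1 fell, of paralogs 4 to 8, 2 of 15 rose and 7 fell, and of paralogs 9 to 13, 8 of 10 fell and none rose.

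Hoxa5 had 41.3 and 33.7 CPM in the KO libraries and 46.1 and 37.9 CPM in the WT libraries in sinusoidal or lymphatic-like cells and averaged 25.7 CPM in the other endothelial-like cells (log2 fold change 0.72 ± 0.06 (SE), adjusted p = 1.01e-11). Its neighbours towards the 3′ end of the cluster, Hoxa4 (0.85 ± 0.10), Hoxa3 (0.28 ± 0.09) and Hoxa2 (0.73 ± 0.19), also rose, together with Hoxb2 (0.28 ± 0.08). The Hoxa3 call was lost without WT replicate 1 (adjusted p = 0.0581) and without WT replicate 2 (adjusted p = 0.0951). Hoxb9 had 0.681 and 0.83 CPM in the KO libraries and 0.449 and 0.755 CPM in the WT libraries, against 16.4 CPM on average (log2 fold change -4.47 ± 0.18 (SE), adjusted p = 4.88e-21). Hoxd9 (-4.79 ± 0.30), Hoxb6 (-4.04 ± 0.30), Hoxa7 (-3.99 ± 0.15) and Hoxd8 (-3.78 ± 0.15) fell by similar amounts. Among the rest of the 10 genes with most molecules, Hoxb7 (-2.60 ± 0.10), Hoxa9 (-2.68 ± 0.11), Hoxa10 (-3.69 ± 0.20) and Hoxb8 (-3.29 ± 0.11) fell and Hoxb4 (-0.008 ± 0.07, adjusted p = 0.998) did not pass. These folds depended on how finely the cells were clustered. With the class drawn again at Leiden resolution 2, the log2 fold changes were -1.64 for Hoxd9, -1.39 for Hoxa10, -1.32 for Hoxd8, -1.25 for Hoxb7, -1.21 for Hoxb8, -1.13 for Hoxb9, -1.12 for Hoxb6, -0.86 for Hoxa9 and -0.82 for Hoxa7, all still called lower. After thinning, 1.98 to 5.71% of these cells held a molecule of paralogs 9 to 13, against 22.6 to 26.1% over all endothelial-like cells.

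Endocardial-like cells, named from markers of the inner lining of the heart, which is no part of the labelled tissue, also had few posterior Hox molecules, on fewer cells. Of 27 Hox genes tested in 3 libraries, 2 were higher and 11 lower, where 10.9% and 14.7% of all 13610 genes were. The Hox median was -3.10, or -0.70 with genes without a UMI set at their bound, against -0.03 over all genes. The HoxA genes had a median of -1.17, which turned to 0.05 with such genes at their bound. Hoxa5 had 59.4 and 48.9 CPM in the KO libraries and 105 and 62.4 CPM in the WT libraries in endocardial-like cells and averaged 25.8 CPM in the other endothelial-like cells (log2 fold change 1.07 ± 0.13 (SE), adjusted p = 5.57e-14). Hoxa4 also rose (1.06 ± 0.23), a call lost without KO replicate 2 (adjusted p = 0.0849).

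Among the genes that fell in endocardial-like cells, Hoxb7 had 0 and 2.72 CPM in the KO libraries and 2.63 and 1.17 CPM in the WT libraries, against 31.5 CPM on average (log2 fold change -4.43 ± 0.34 (SE), adjusted p = 3.61e-37). Hoxd8 had 1 UMI (ratio 0.0145, counting interval 0.000367 to 0.0809, adjusted p = 6.15e-25), Hoxb6 had 1 (ratio 0.047, counting interval 0.00119 to 0.262, adjusted p = 5.75e-07) and Hoxa10 had 3 (ratio 0.0766, counting interval 0.0158 to 0.224, adjusted p = 2.38e-11). Of the other genes with the most molecules, Hoxb9 (-3.96 ± 0.44), Hoxa9 (-2.43 ± 0.25), Hoxa7 (-3.10 ± 0.30) and Hoxb8 (-3.24 ± 0.29) fell and Hoxb4 (-0.27 ± 0.17, adjusted p = 0.264) and Hoxb2 (0.018 ± 0.19, adjusted p = 0.963) did not pass. On these few cells a single library moved the folds, to -1.67 for Hoxa9 and -2.36 for Hoxa7 without WT replicate 2, to -5.67 for Hoxb9 without KO replicate 1 and to -5.29 for Hoxb7 without KO replicate 2. The mean paralog number was 3.97 to 4.47, which overlapped that of sinusoidal or lymphatic-like cells and lay below that of every other vessel class.

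Neural barrier-like cells, which carry markers of vessels that grow into the neural tube, had more of 3 HoxD genes and less of most anterior paralogs. Of paralogs 1 to 3, 4 of 5 fell and none rose, and of paralogs 9 to 13, 3 of 10 rose and 1 fell. Of 29 Hox genes tested, 5 were higher and 11 lower, where 21% and 22.7% of all 13705 genes were (Hox median log2 fold change -0.39, against -0.00). Hoxd9 had 10.6 and 11.5 CPM in the KO libraries and 10.04 and 13.6 CPM in the WT libraries in neural barrier-like cells and averaged 5.03 CPM in the other endothelial-like cells (log2 fold change 1.22 ± 0.08 (SE), adjusted p = 7.35e-12). Hoxd10 averaged 2.25 against 1.04 CPM (log2 fold change 1.20 ± 0.18 (SE), adjusted p = 5.72e-06). Hoxb9 (0.54 ± 0.06), Hoxd8 (0.20 ± 0.06) and Hoxb8 (0.17 ± 0.05) rose by less, and the Hoxd8 call was lost without WT replicate 2 (adjusted p = 0.0698).

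Of the genes that fell in neural barrier-like cells, Hoxa5 had 13.7 and 11.3 CPM in the KO libraries and 12.6 and 11.6 CPM in the WT libraries, against 29.96 CPM on average (log2 fold change -1.28 ± 0.06 (SE), adjusted p = 5.50e-15). Hoxb5 (-1.33 ± 0.22), Hoxc6 (-1.04 ± 0.33) and Hoxa4 (-0.86 ± 0.10) also fell. Of the other genes with the most molecules, Hoxb4 (-0.53 ± 0.06) and Hoxb2 (-0.54 ± 0.09) fell and Hoxa9 (-0.10 ± 0.05, adjusted p = 0.138), Hoxb7 (-0.055 ± 0.05, adjusted p = 0.431), Hoxa7 (0.10 ± 0.05, adjusted p = 0.11) and Hoxa10 (-0.11 ± 0.09, adjusted p = 0.346) did not pass. The Hoxb5 call was lost without WT replicate 2 (adjusted p = 0.0532), and the Hoxc6 call without KO replicate 2 (0.108), WT replicate 1 (0.0845) or WT replicate 2 (0.0674), all adjusted p-values from edgeR. Calls were also gained in edgeR, for Hoxa7 as higher without KO replicate 1 (adjusted p = 0.00835) and Hoxa9 as lower without WT replicate 2 (adjusted p = 0.0354). The mean paralog number was 6.48 to 6.98, which overlapped the arterial-like range at its low end. Across tested genes, Spearman's rank correlation of the fold change with paralog number was 0.42 in neural barrier-like (29 genes), 0.03 in arterial-like (30), -0.61 in sinusoidal or lymphatic-like (30) and -0.70 in endocardial-like cells (22 genes with UMIs in both groups). These are descriptions across genes of the same libraries, and neighbouring Hox genes are not independent.

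**Figure D4:**
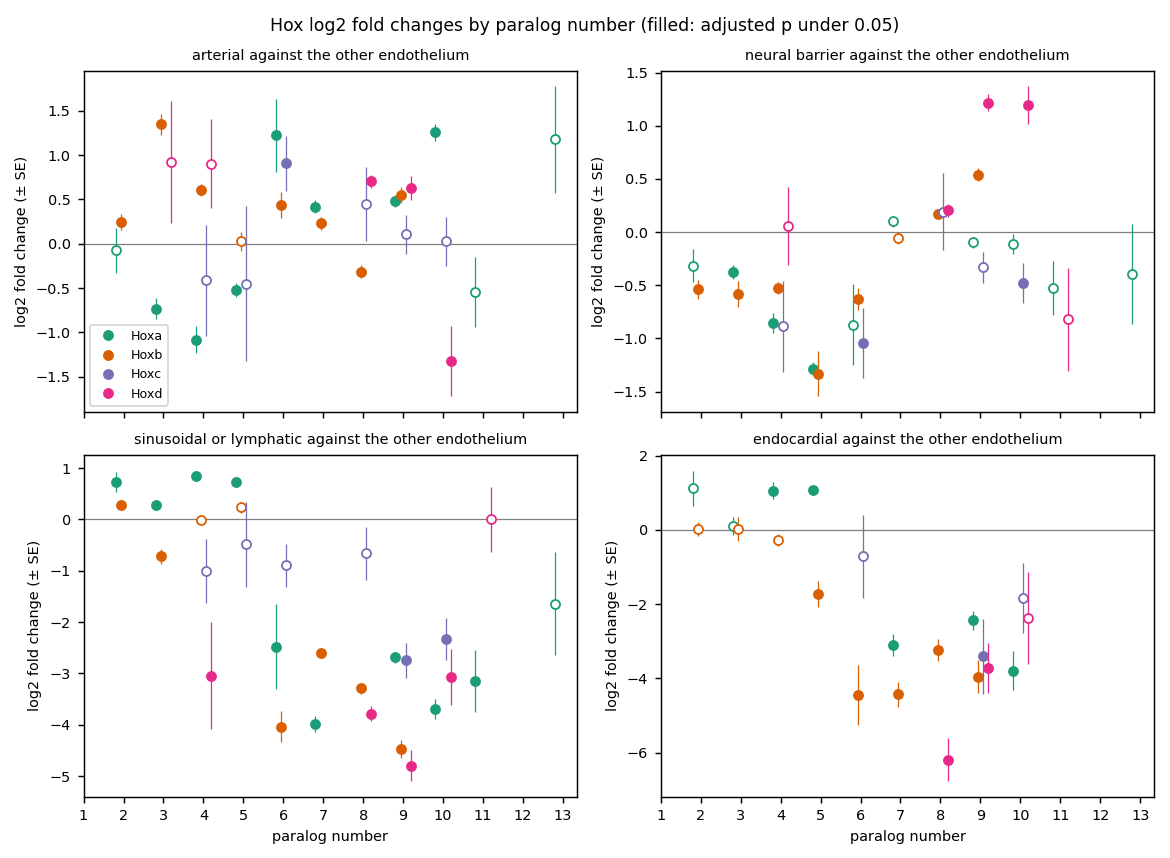
Log2 fold change (± SE) of Hox genes against paralog number in arterial-, neural barrier-, sinusoidal or lymphatic- and endocardial-like cells, each against the other endothelial-like cells, coloured by cluster. Filled points had an adjusted p under 0.05, and genes with 0 UMIs in a group are left out. In the sinusoidal and endocardial panels points tend to lie lower at high paralog numbers, and in the neural barrier panel they tend to lie higher at high paralog numbers.

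Hemogenic-like cells, in which the endothelium turns towards blood, held more of a run of HoxA genes and less of most HoxB and HoxD genes. They numbered 133 and 78 in the KO libraries and 11 and 77 in the WT libraries. Myeloid markers (8 genes) summed to 136 to 377 CPM in this class, against 5.40 to 7.98 CPM in endothelial-like cells, and their part in the Hox values was not tested. WT replicate 1 was left out of the fit, and the comparison was added after the classes had been seen. Hox genes summed to 309 and 271 CPM in the KO libraries and 342 and 293 CPM in the WT libraries, within or near the range of the endothelium. Of 29 Hox genes tested, 4 were higher and 13 lower than in endothelial-like cells, where 21.1% and 27% of all 14061 genes were (Hox median log2 fold change -0.55, or -0.36 with genes without a UMI at their bound, against -0.03). All 4 higher genes were HoxA genes, beside 4 lower of the 10 HoxA genes tested, and 6 of 9 HoxB and 3 of 4 HoxD genes were lower.

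Hoxa9 had 89.7 and 76.2 CPM in the KO libraries and 66.8 and 87.3 CPM in the WT libraries in hemogenic-like cells, against 23.9 to 29 CPM in endothelial-like cells (log2 fold change 1.47 ± 0.09 (SE), adjusted p = 6.61e-35), and WT replicate 1, with 11 cells, lay in the same direction. Hoxa6 averaged 3.23 against 0.461 CPM (log2 fold change 2.48 ± 0.57 (SE), adjusted p = 8.64e-05), and Hoxa7 averaged 49.6 against 25.4 CPM (log2 fold change 0.81 ± 0.11 (SE), adjusted p = 1.33e-11). Hoxa10 rose by less (log2 fold change 0.42 ± 0.18 (SE), adjusted p = 0.0409), a call lost without KO replicate 1 (adjusted p = 0.35) and without KO replicate 2 (adjusted p = 0.159). This call was also lost in edgeR with no filter on low counts (adjusted p = 0.0779) or no library block (0.0543), and with DESeq2 (0.174). The neighbours Hoxa6, Hoxa7 and Hoxa9 thus rose, with a call for Hoxa10 that depended on the settings, while Hoxa4 (-2.43 ± 0.33) on their 3′ side fell. Arterial-like cells, against the other endothelium, also had these genes higher and Hoxa4 lower, so the pattern was not particular to hemogenic-like cells. The arterial Hoxa6 call was itself lost in the settings given above. Of the other genes with the most molecules, Hoxb4 (-0.62 ± 0.14) and Hoxb8 (-1.42 ± 0.16) fell and Hoxa5 (-0.03 ± 0.12, adjusted p = 0.868) and Hoxb9 (0.027 ± 0.15, adjusted p = 0.903) did not pass.

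Hoxd8 had 3.31 and 1.75 CPM in the KO libraries and 4.95 and 2.95 CPM in the WT libraries in hemogenic-like cells, against 16.8 to 20.7 CPM in endothelial-like cells (log2 fold change -2.80 ± 0.25 (SE), adjusted p = 3.04e-21). Hoxb7 averaged 7.73 against 31.1 CPM (log2 fold change -2.15 ± 0.17 (SE), adjusted p = 4.90e-25). Hoxd9 had 2 UMIs (ratio 0.0484, counting interval 0.00586 to 0.175, adjusted p = 7.22e-13), Hoxd10 1 (ratio 0.124, counting interval 0.00312 to 0.693, adjusted p = 0.0117) and Hoxa11 1 (ratio 0.165, counting interval 0.00417 to 0.928, adjusted p = 0.0487). The Hoxd10 call was lost without KO replicate 2 (adjusted p = 0.0761) or WT replicate 2 (adjusted p = 0.0738), and the Hoxa11 call without KO replicate 1 (adjusted p = 0.341) or WT replicate 2 (adjusted p = 0.204). Hoxb2, called lower (-0.55 ± 0.16), was lost without KO replicate 1 (adjusted p = 0.101). Meis1, a cofactor that works with Hoxa9 in blood progenitors, had 95.9 and 99.5 CPM in the KO libraries and 119 and 107 CPM in the WT libraries, against 5.64 to 7.91 CPM in endothelial-like cells (log2 fold change 3.79 ± 0.11 (SE), adjusted p = 3.78e-72).

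Between genotypes, no Hox gene passed in the fits as reported. These covered endothelial-, mesenchymal-, neural- and arterial-like cells and the mesenchymal-like clusters, and in germ cell-like cells no Hox gene was tested. The other vessel classes and hemogenic-like cells were not fitted by genotype. The result depended on the settings. With the replicate number as a block, 5 Hox genes passed by edgeR in mesenchymal-like cells. They were Hoxd12 (adjusted p = 0.00137), Hoxd11 (0.00287), Hoxa11 (0.00786), Hoxb9 (0.00814) and Hoxa10 (0.0317), of which Hoxb9 was higher in KO and the others lower. In neural-like cells Hoxc8 alone passed with this block (adjusted p = 0.00315 by edgeR), higher in KO. With no filter on low counts, 3 passed in mesenchymal-like cells. In endothelial-like cells, 0 of 32 tested Hox genes had an adjusted p under 0.05 by edgeR, where 0.15% of all 14637 genes did. At an unadjusted p under 0.05 there were 0 Hox genes and 261 of all genes. The Hox median log2 fold change of KO over WT was 0.02. The smallest p belonged to Hoxa11, with 0.869 and 0.72 CPM in the KO libraries and 1.17 and 1.17 CPM in the WT libraries (log2 fold change -0.55 ± 0.27 (SE), adjusted p = 1). Summed Hox levels in the class were 309 and 281 CPM in the KO libraries and 287 and 294 CPM in the WT libraries, and the ranges overlapped. DESeq2 also called 0 Hox genes in this and each of the following KO and WT comparisons. The KO libraries differed from each other in Xist, the RNA of the inactive X chromosome, which was at 0.0155, 262, 266 and 267 CPM in endothelial-like cells of KO replicates 1 and 2 and WT replicates 1 and 2, and the Y-linked Ddx3y was at 20.7 to 32.9 CPM in all 4. KO replicate 2 and both WT libraries thus held RNA of both sexes, while KO replicate 1 had almost no Xist. The part of this difference in the Hox values was not tested.

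In mesenchymal-like cells, 0 of 35 Hox genes passed (0.00821% of all 12178 genes did), although 8 had an unadjusted p under 0.05, as did 298 of all genes. Hoxd12 had 5.22 and 6.78 CPM in the KO libraries and 17.8 and 14.4 CPM in the WT libraries, the smallest p of the class (log2 fold change -1.44 ± 0.26 (SE), unadjusted p = 9.36e-05, adjusted p = 0.158 by edgeR). KO libraries were below both WT libraries for Hoxd12, and likewise for Hoxd11 with 62.2 and 59.8 CPM in the KO libraries and 103 and 94.7 CPM in the WT libraries (adjusted p = 0.339 by edgeR). Hoxb9 had 47.2 and 37.3 CPM in the KO libraries and 25.8 and 25.1 CPM in the WT libraries (log2 fold change 0.77 ± 0.19 (SE), adjusted p = 0.679 by edgeR), so there the KO libraries were above both WT libraries.

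Summed over paralogs 9 to 13, HoxA genes of mesenchymal-like cells held 156 and 158 CPM in the KO libraries and 216 and 217 CPM in the WT libraries, and HoxD genes 119 and 113 CPM in the KO libraries and 188 and 172 CPM in the WT libraries. For HoxB the sums were 47.2 and 37.3 CPM in the KO libraries and 25.8 and 30.3 CPM in the WT libraries. The groups did not overlap in any of these 3 sums, but an exact permutation test of 2 libraries against 2 cannot go below a two-sided p of 0.333, the value each gave. For HoxC the sums were 130.04 and 146 CPM in the KO libraries and 143 and 209 CPM in the WT libraries, and the groups overlapped. Over tested genes of the class, the paralogs 9 to 13 had a median log2 fold change of -0.54, against 0.04 over all Hox genes tested and -0.00 over all genes. Splitting the class gave 0 calls again, with 0% of all genes called in either cluster. In cluster 8, 32 Hox genes were tested and 8 had an unadjusted p under 0.05, as did 331 of all 11632 genes. In cluster 14, 29 were tested and 7 had an unadjusted p under 0.05, as did 269 of all 9746 genes. The smallest p was that of Hoxd12 in cluster 8 (log2 fold change -1.33 ± 0.26 (SE), adjusted p = 0.399 by edgeR) and Hoxd11 in cluster 14 (-1.43 ± 0.29 (SE), adjusted p = 0.302 by edgeR).

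Results in mesenchymal-like cells depended on which library was left out. These fits leave 1 library in a genotype, so only edgeR log2 fold changes are given. Without KO replicate 2 they were -1.61 for Hoxd12, 0.917 for Hoxb9, -1.28 for Hoxa13 and -1.01 for Hoxa11. Without WT replicate 2 Hoxd12 stood at -1.54, and without WT replicate 1 Hoxc10 stood at -0.745. In this class Hoxb13 had UMIs in WT replicate 2 alone, so its fold without WT replicate 1 rests on that library. Mesenchymal-like cells made up 12.9% and 4.30% of the KO libraries and 15.2% and 3.36% of the WT libraries. Markers of hepatocytes (5 genes) summed to 2.52 and 350.4 CPM in the KO libraries and 3.56 and 3.96 CPM in the WT libraries in mesenchymal-like cells, high in KO replicate 2, and their part in the Hox values was not tested.

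**Figure D5:**
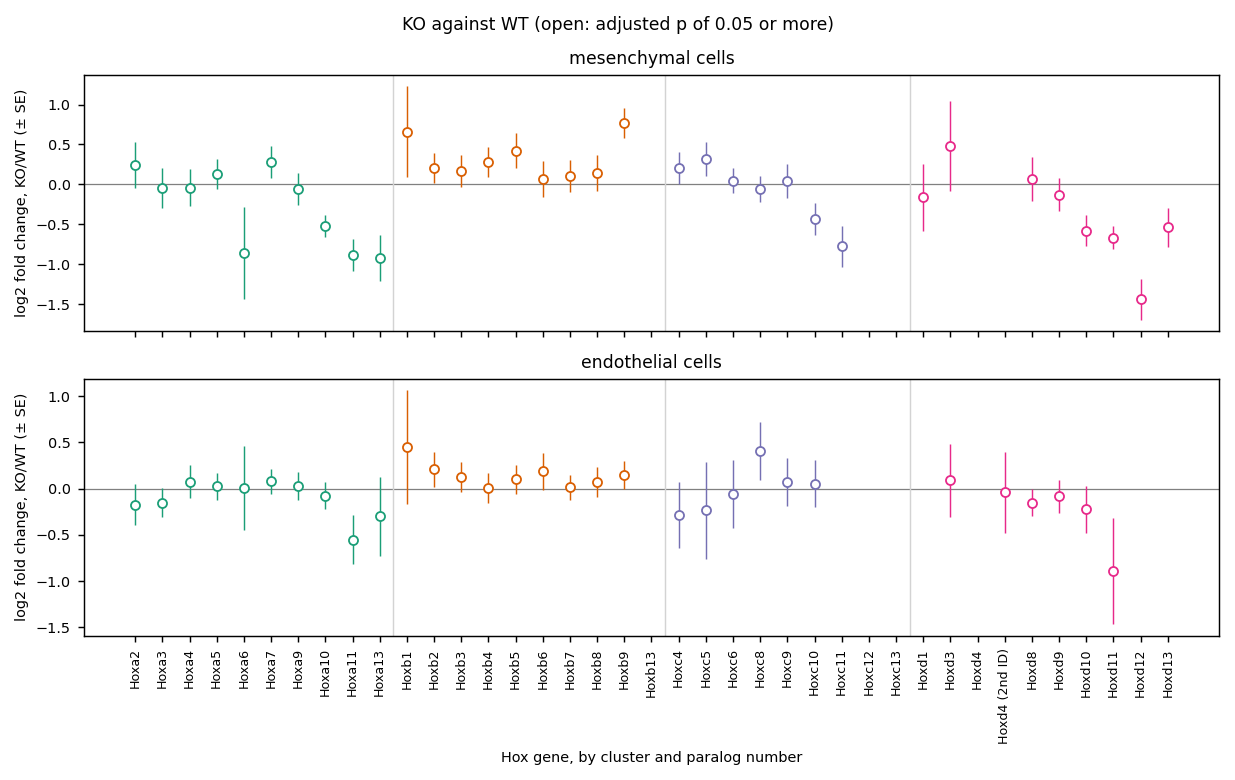
Log2 fold change of KO over WT (± SE) for Hox genes with UMIs in both groups, in mesenchymal-like cells (upper panel) and endothelial-like cells (lower panel), ordered by cluster and paralog number. All points are open, since no adjusted p was under 0.05. Hoxd12, Hoxd11 and Hoxa11 lie below 0 and Hoxb9 above 0 in the upper panel.

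In neural-like cells 0 of 29 Hox genes passed (0.0109% of all genes did) and 2 had an unadjusted p under 0.05, as did 225 of all 9193 genes. Hoxc6 had the smallest p, with 134 and 146 CPM in the KO libraries and 103 and 98.1 CPM in the WT libraries (log2 fold change 0.49 ± 0.18 (SE), adjusted p = 1 by edgeR), and both KO libraries were above both WT libraries. Hepatocyte markers summed to 1.93 and 1621 CPM in the KO libraries and 11.7 and 80.0 CPM in the WT libraries in this class, and their part was not tested. In arterial-like cells 0 of 20 passed (0.0271% of all genes did) and 1 had an unadjusted p under 0.05, as did 263 of all 11055 genes. Hoxd9 had the smallest p with 7.15 and 9.53 CPM in the KO libraries and 12.2 and 13.7 CPM in the WT libraries (log2 fold change -0.61 ± 0.27 (SE), adjusted p = 1 by edgeR). In germ cell-like cells no Hox gene had enough molecules to be tested, while 0.134% of all genes tested were called. The difference of the KO effect between mesenchymal- and endothelial-like cells was called for 0 of 38 Hox genes (0.0862% of all genes). At an unadjusted p under 0.05 there were 3 Hox genes and 814 of all 15082 genes. The smallest p was that of Hoxb9 (log2 difference 0.59 ± 0.14 (SE), adjusted p = 0.195 by edgeR).

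Seed matches to miR-223 were rare among Hox genes. The 7 letters that pair with its seed, AACTGAC on the transcript strand, stood in the 3′ UTR of 1 of 39 Hox genes (2.56%), against 9.68% of 21101 genes with a GENCODE M21 3′ UTR. That gene was Hoxd12, whose window is shown because it is the Hox gene with the smallest p between genotypes in mesenchymal-like cells, with the match in capitals.
Hoxd12, chromosome 2: ttgagcctcgccccAACTGACc
The match is a description and not a shown site, and the level of Hoxd12 was lower in the KO libraries. For the miR-10 seed (ACAGGGT) 4 Hox genes held a match (10.3%, against 14.1% of all), among them Hoxa3, Hoxb3 and Hoxd1. For the miR-196 seed (ACTACCT) 9 did (23.1%, against 7.71%), among them Hoxa4, Hoxa5, Hoxa7, Hoxa9, Hoxb1, Hoxb6, Hoxb7 and Hoxc8. Hoxc8 was barely expressed in the endothelium and high in mesenchymal- and neural-like cells, Hoxa7 held 4 matches, and Hoxb3 had the highest arterial fold. Windows of these genes are shown with the match in capitals.
Hoxc8, chromosome 15: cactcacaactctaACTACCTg
Hoxa7, chromosome 6: ggcacagccaaaatACTACCTa
Hoxb3, chromosome 11: gacttaacgtgaaaACAGGGTa

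All 9 Hox cofactors on the list (Pbx, Meis and Pknox genes) were higher in mesenchymal-like cells than in endothelial-like cells, where 34.9% of all genes were higher and 38% lower (median log2 fold change 2.43, against -0.02 over all genes). All 9 were also higher in neural-like cells, where 27.7% of all genes were higher and 32.1% lower (median 2.35, against -0.04). In hemogenic-like cells 4 of 8 were higher and 2 lower, where 21.1% and 27% of all genes were (median 0.23, against -0.03). In germ cell-like cells 3 of 9 were higher and 4 lower, where 36.7% and 43.8% of all genes were (median -0.28, against -0.11). In endocardial-like cells 5 of 9 were higher and none lower, where 10.9% and 14.7% of all genes were (median 1.03, against -0.03). Arterial-like cells had 5 of 9 higher and 2 lower, where 30.9% and 34.7% of all genes were. Sinusoidal or lymphatic-like cells had 4 of 9 higher and 2 lower, where 27.6% and 25.9% of all genes were. Neural barrier-like cells had 1 of 8 higher and 3 lower, where 21% and 22.7% of all genes were. Meis2 stood at 203 and 256 CPM in the KO libraries and 229 and 269.6 CPM in the WT libraries in endocardial-like cells. The retinoic acid genes, which carry an upstream signal for 3′ Hox genes, had 11 higher and 2 lower of 17 in mesenchymal-like (median 1.02), 6 higher and 4 lower of 16 in neural-like (median 0.24) and 4 higher and 10 lower of 16 in germ cell-like cells (median -1.54), to be read against the shares of all genes just given.

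Polycomb genes, the repressors of silent Hox clusters, had 12 higher and 4 lower of 19 in mesenchymal-like cells (where 34.9% and 38% of all genes were), 11 and 3 of 19 in neural-like cells (27.7% and 32.1%) and 13 and 5 of 19 in germ cell-like cells (36.7% and 43.8%), with median log2 fold changes of 0.51, 0.47 and 0.85. Of the Cdx, Gdf11 and related genes upstream of Hox genes, 4 of 6 were higher and 1 lower in mesenchymal-like cells (median 0.70) and 5 of 7 were higher and none lower in neural-like cells (median 1.35). Of genes of head position, 3 of 4 tested were higher and 1 lower in both classes (medians 4.86 in mesenchymal-like and 4.61 in neural-like cells). Genes of the trithorax group had 5 higher and 3 lower of 11 in mesenchymal-like cells (median 0.08). Antisense and opposite-strand transcripts of the Hox clusters had 6 higher and 3 lower of 10 in mesenchymal-like cells, 6 higher and none lower of 7 in neural-like cells, and 1 higher and 4 lower of 7 in hemogenic-like cells, where 21.1% and 27% of all genes were. In germ cell-like cells 7 of 7 were lower (median log2 fold change -4.70, against -0.11 over all genes). Hoxb5os, transcribed against Hoxb5, had 118 and 88.9 CPM in the KO libraries and 70.9 and 99.96 CPM in the WT libraries in neural-like cells, against 0.412 to 0.729 CPM in endothelial-like cells. No source used here says whether strand was used in counting. How far reads of these transcripts and of the Hox genes they overlap were kept apart was not checked. In GENCODE M21, 10 Hox genes share exon bases with a gene on the opposite strand and 9 with a gene on the same strand, among them Hoxd3 (62.3% of its exon bases) and Hoxd4 (52.3%), whose values are therefore uncertain. No gene of the 8 lists passed in any KO and WT comparison.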

How the data were processed

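The deposited matrices hold whole-number UMI counts per gene and cell barcode, made by the authors with Cell Ranger 3.1.0 per the file headers. The submitters' processing notes name Cell Ranger and Seurat 4, and no source used here gives the genome build or the annotation. Barcodes with at least 1000 genes and under 10% mitochondrial counts were kept, and 3.53% to 10.1% were removed as likely doublets (score from 2 simulated doublets per cell, 0.8% expected per 1000 barcodes). Counts were scaled to 10000 per cell, and 40 components of 2000 variable genes, without mitochondrial genes or genes within 50 kb of a Hox cluster, were clustered (20 neighbours, Leiden resolution 1) with Python 3.11.15, scikit-learn 1.9.0 and leidenalg 0.10.2. A cluster was named when at least 3 markers of a list were detected in 10% of its cells, 1 or more stood among its top 10 genes and their mean log2 fold was at least 0.5, or, for endothelium, when mean marker detection reached 75%, unless its cells had few UMIs for their libraries and no endothelial marker stood among the top 10 genes. These limits were set after the clusters had been seen. Total counts per library were 109713066 and 167542930 in KO and 95158639 and 181682389 in WT.

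For each library, the counts of a class were added up and tested with edgeR 4.0.16 in R 4.3.3 (quasi-likelihood, TMM, its default filter on low counts, Benjamini-Hochberg over all genes). Class comparisons had the library as a block, and KO against WT had none. DESeq2 1.42.0 was an alternative. A class entered a fit with at least 20 cells per library. Shares of cells used 5000 UMIs per cell. Intervals are 95% Clopper-Pearson or exact Poisson and, like floors of 3 counts, cover counting error only. The code was tested on simulated data. For each class comparison the text names the 10 Hox genes with most UMIs and up to 5 genes higher and 5 lower, and for KO against WT the gene with the smallest p, with further genes named after their values were seen. The members and the gene lists were chosen with earlier results of these data known. Values of 1 member and 1 cofactor are not reported here, though they remain in the counts and sums.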

Additional observations from a re-analysis of the deposited data

How the results depend on the processing

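Each count of Hox genes called between classes stayed within 1.5 times its value under the alternatives run for it: DESeq2 with its own size factors and Wald test, edgeR with those size factors, no filter on low counts, no replicate block, each library left out, doublets kept and Leiden resolution 2. The last 2 were not run for cluster 8 against cluster 14, and WT replicate 1 was in no hemogenic- or endocardial-like fit. Over these comparisons the median log2 fold change of all genes, -0.11 to -0.001 as reported, stood at -0.033 to 0.395 with DESeq2 and at -0.477 to 0.069 with no filter. At resolution 2 the split of higher and lower calls was 9 and 7 in arterial-like and 7 and 11 in sinusoidal or lymphatic-like cells. For KO against WT, where the count was 0 in each class, no filter on low counts gave 3 Hox genes in mesenchymal-like cells, 1 in cluster 8, 2 in cluster 14 and 2 for the difference of effects, and leaving out a library gave 0 to 4, 0 to 2 in cluster 14, 0 to 1 in neural-like cells and 0 to 2 for the difference. With the replicate number as a block, 5 genes passed in mesenchymal-like cells, 1 in neural-like cells and 2 in cluster 14. Same-numbered endothelial-like libraries deviated together with r = 0.327 (14637 genes, 2 pairs), and the labels tie the numbers to nothing. Mesenchymal-like shares were 12.9% and 15.2% in replicates 1 of KO and WT, against 4.30% and 3.36% in replicates 2. Erythroid markers in endothelial-like cells, in the same order, summed to 161 and 167 against 44.1 and 62.9 CPM. Hemogenic-like shares did not separate this way (3.23% and 0.479% against 1.33% and 1.12%). Whether the numbers mark a batch was not tested. The share of endothelial-like cells with a Hox molecule was 0.238 percentage points higher in KO than in WT, -0.132 with 3000 UMIs, -0.938 without thinning and -1.44 to 1.92 without a library. The summed endothelial level, 4.42 CPM higher in KO, ranged from -9.32 to 18.2 without a library. Of single genes, 13 values under alternatives, of 6 genes in 1 comparison each, had the other sign, and none of the 6 was called. Without a library, Hoxd8 in neural-like cells ranged from -0.31 to 0.056, Hoxa5 in hemogenic-like cells from -0.14 to 0.13, Hoxb9 there from -0.059 to 0.098, Hoxb4 in sinusoidal or lymphatic-like cells from -0.073 to 0.011, Hoxb7 in neural barrier-like cells from -0.089 to 0.015 and Hoxb2 in endocardial-like cells from -0.17 to 0.11. With doublets kept, Hoxb9 stood at -0.0084 in hemogenic-like, Hoxb4 at 0.037 in sinusoidal or lymphatic-like and Hoxb2 at -0.060 in endocardial-like cells. At resolution 2 values were 0.051 for Hoxb4 and -0.0062 for Hoxb2, and with no replicate block -0.049 for Hoxb2. The causes were not tested. In germ cell-like cells Hox molecules were too few for any Hox gene to enter the KO and WT test as reported.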
